A study of Mus musculus with 4 samples.

Results

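Oligodendrocytes are the cells that wrap axons of the brain in myelin, and 9 genes that mark the steps of their lineage were followed in sorted cerebral cells, out of 24873 listed genes. They were taken by gene symbol, and all 9 were found and passed the filter of a mean of at least 10 normalized counts over the 4 libraries. The precursor stage was represented by Ptprz1, Cspg5, Olig1, Olig2 and Sox10, the committed stage by Gpr17, and the myelinating stage by Cnp, Mbp and Mog. RNA-Seq had been performed on CD31+CD45- cells of the cerebrum, a gate that selects endothelial cells (ECs) and leaves out blood cells, while the sample labels call the source tdTomato+ brain cells. All mice carried the alleles labelled Cdh5cre;Mgpflox/flox, in which the VE-cadherin promoter drives a tamoxifen-activated Cre recombinase in ECs and the Mgp gene is floxed. The tamoxifen group received 5 daily injections of 75 mg/kg starting at an age of 10 weeks, and the controls had the same alleles and no injection. Cells were isolated on day 9. Each group had 2 libraries, and each library held cells pooled from 3 mice. Tamoxifen itself and the deletion of Mgp cannot be told apart in this design, since none of the libraries came from mice given tamoxifen without the floxed gene. The cell suspension had gone through a myelin removal step before the sort.

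In the lineage, precursor cells divide and migrate under the control of the transcription factors OLIG1, OLIG2 and SOX10, which remain on in their daughters. Some then commit to differentiation and pass through a short stage in which the receptor GPR17 is high, and GPR17 is lost again before the myelin proteins are made. CNP appears early in this last step, MBP compacts the myelin membranes, and MOG is placed on the outside of the finished sheath. Not all of these genes are confined to the lineage, and several precursor genes are also active in astrocytes, neural progenitors or, for Sox10, in neural crest cells.

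The libraries held 35387438 to 49799321 reads on genes, and 1 read was worth between 0.719 and 1.37 normalized counts. The targeted gene Mgp was listed at 1094 and 1352 normalized counts in the controls and at 945 and 909 in the tamoxifen libraries, a log2 fold change of -0.39 that did not pass the test (limma, Benjamini-Hochberg (BH)-adjusted p = 0.0986). The summed level of 8 endothelial markers was 910308 and 881508 normalized counts in the controls and 152984 and 77773 in the tamoxifen libraries, and all 8 were called lower. CD31 itself (Pecam1) had a log2 fold change of -2.85. Ptprc, which encodes CD45, was listed at 50.7 and 83.9 normalized counts against 1423 and 1119. In bulk libraries of this kind, fewer cells of a type and less RNA per cell cannot be told apart.

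The 9 genes did not move as 1 group. All 5 precursor genes and all 3 myelinating genes had both tamoxifen libraries above the 2 controls and were called higher, whereas Gpr17 was lower in both and was called lower. To be called, a gene needed both a log2 fold change beyond 1 in either direction and a BH-adjusted p under 0.05 in limma. Of all 20485 genes tested, 28.6% were called higher and 16% lower. Without regard to the test, 43.1% of the genes tested had both tamoxifen libraries above both control libraries, and 39.2% had both below. The median log2 fold change was 2.98 over the 9 genes and 0.05 over all genes tested. With either tamoxifen library left out, 5 of the 9 genes were still called higher, while the calls over all genes fell from 9151 to 5024 without the first and to 4147 without the second.

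**Figure D1:**
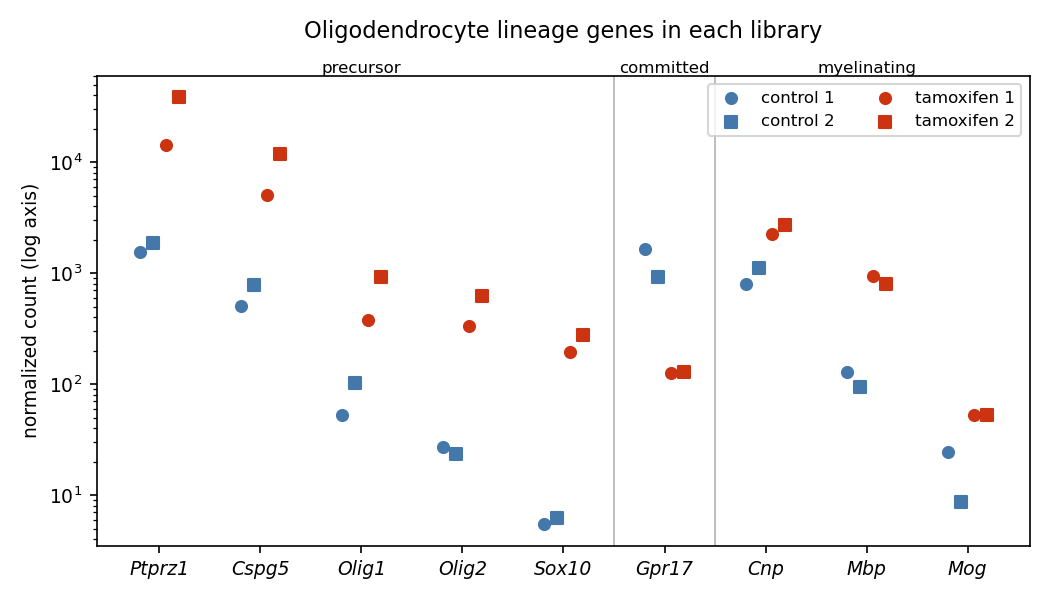
Normalized counts (log axis) of the 9 lineage genes in the 2 control and the 2 tamoxifen libraries, ordered by stage, with 1 point per library. The precursor and myelinating genes lie higher in the tamoxifen libraries, and Gpr17 falls from 1666 and 926 to 126 and 129.

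The surface proteoglycans were the most abundant of the precursor genes. Ptprz1 (chromosome 6 from 22875358 to 23054236, GRCm39), a receptor tyrosine phosphatase that carries chondroitin sulfate chains, was listed at 1542 and 1882 normalized counts in the controls and at 14320.2 and 38626 in the tamoxifen libraries. The groups were far apart, and the tamoxifen libraries also differed widely from each other. The log2 fold change was 3.79 (SE 0.40, 95% interval 2.85 to 4.72, limma, BH-adjusted p = 0.000173), and the mean was 15.5-fold higher. Cspg5 (chromosome 9 from 110072851 to 110091644), a transmembrane proteoglycan also known as neuroglycan C, was listed at 504 and 782 against 5111 and 11825. Its tamoxifen libraries again stood apart from each other and well above the controls. Its log2 fold change was 3.63 (SE 0.38, 95% interval 2.75 to 4.51, limma, BH-adjusted p = 0.000159), or 13.2-fold between the means.

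The transcription factors of the lineage were low in the controls and rose. Olig2 (chromosome 16 from 91019435 to 91025567), the basic helix-loop-helix factor that specifies the lineage, was listed at 27.4 and 23.8 normalized counts in the controls and at 337 and 630.5 in the tamoxifen libraries. The groups did not overlap, and the control values rested on 20 and 19 reads. The log2 fold change was 4.12 (SE 0.44, limma, BH-adjusted p = 0.000177). Olig1, its relative, starts 41092 bases after the end of Olig2 on the same strand and was listed at 53.4 and 103 against 381 and 917. Here too the groups were apart, with a log2 fold change of 2.98 (SE 0.49, limma, BH-adjusted p = 0.00144). The call of Olig1 was lost without the first tamoxifen library (limma, BH-adjusted p = 0.0560) and without the second (BH-adjusted p = 0.106). Within a library, there were 1.95 and 4.32 Olig1 counts for each Olig2 count in the controls and 1.13 and 1.45 in the tamoxifen libraries. Sox10 (chromosome 15 from 79039108 to 79049469), a high mobility group factor needed for the expression of myelin genes, had 4 and 5 reads in the control libraries, with exact Poisson 95% intervals of 1.09 to 10.2 and 1.62 to 11.7 reads that cover counting error only. In the tamoxifen libraries it had 182 and 390 reads. As normalized counts, Sox10 went from 5.48 and 6.26 to 197 and 280.4, the largest log2 fold change of the 9 genes, at 5.11 (SE 0.52, 95% interval 3.91 to 6.31, limma, BH-adjusted p = 0.000139). Of all genes tested, 95.4% had a lower log2 fold change than Sox10, and the corresponding share was 91.0% for Olig2 and 83.9% for Olig1. With control counts under 10, Sox10 could pass the filter only by being higher with tamoxifen.

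The 200 bases in front of the start of the Ensembl canonical transcript are shown for Olig1 and Olig2, which rose together, and for the myelin gene Cnp, which rose less (GRCm39, 5′ to 3′ on the strand of the gene, capitals mark CCAAT or its reverse complement ATTGG and the E-box CANNTG, the letters that OLIG1, OLIG2 and other helix-loop-helix factors bind).
Olig1, chr16:91066460-91066659, plus strand: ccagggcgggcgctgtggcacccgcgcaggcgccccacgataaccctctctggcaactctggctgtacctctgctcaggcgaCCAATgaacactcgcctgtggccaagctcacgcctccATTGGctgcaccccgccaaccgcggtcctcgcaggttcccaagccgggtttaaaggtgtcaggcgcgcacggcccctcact
Olig2, chr16:91022098-91022297, plus strand: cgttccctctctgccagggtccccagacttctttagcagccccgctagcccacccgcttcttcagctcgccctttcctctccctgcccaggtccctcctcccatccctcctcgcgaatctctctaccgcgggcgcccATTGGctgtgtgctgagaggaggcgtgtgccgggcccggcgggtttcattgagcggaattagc
Cnp, chr11:100465530-100465729, plus strand: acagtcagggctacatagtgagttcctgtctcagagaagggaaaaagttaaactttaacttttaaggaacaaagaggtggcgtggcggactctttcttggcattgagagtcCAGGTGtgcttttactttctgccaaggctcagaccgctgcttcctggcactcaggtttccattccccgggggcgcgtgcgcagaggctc

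These stretches differed in composition and in the motifs they held. G and C made up 67% of the Olig1 stretch, 65% of that of Olig2 and 52% of that of Cnp. The Olig1 stretch held CCAAT on both strands, 2 matches in all, that of Olig2 held 1 match, and that of Cnp held none. Of these 3 stretches, CANNTG was found in that of Cnp alone. The stretches of Ptprz1 and Sox10, which rose more than Cnp, held no CCAAT, and neither did that of Mog. That of Cspg5 held 1 match, so that CCAAT did not follow the size of the rise. Over the stretches of the same length of 23798 listed genes, searched on both strands, 29.5% held CCAAT and 55.5% held CANNTG. Letters that match are a description and do not show binding, and CCAAT was searched after the sequences had been seen.

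Gpr17 (chromosome 18 from 32076050 to 32082888), a G protein-coupled receptor of cells that have committed to differentiation, went in the opposite direction. It was listed at 1666 and 926 normalized counts in the control libraries, from 1216 and 740 reads, and at 126 and 129 in the tamoxifen libraries, from 116 and 179 reads. The control libraries were unequal, but both were well above the tamoxifen libraries, which were nearly equal. The mean was 10.2-fold lower in the tamoxifen libraries, with a log2 fold change of -3.28 (SE 0.31, 95% interval -4.0 to -2.55, limma, BH-adjusted p = 0.000112). Of all genes tested, 0.781% had a lower log2 fold change. The 8 endothelial markers, all called lower, had log2 fold changes of -3.43 to -2.75, a range that includes that of Gpr17. The part of ECs or other cells in the level of Gpr17 was not tested. Without the second tamoxifen library the log2 fold change was -3.29 and the call was lost (limma, BH-adjusted p = 0.0535).

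Gpr17 lies inside another gene that fell. The whole of Gpr17 lies within Lims2, which is read from the opposite strand and encodes an adaptor protein of cell-matrix adhesions, and 320 exonic bases, 5.93% of the exon bases of Gpr17, are shared with exons of Lims2. Lims2 was listed at 12477 and 15055 normalized counts in the controls and at 1870 and 761 in the tamoxifen libraries, with a log2 fold change of -3.52 (limma, BH-adjusted p = 0.000161). Per 100 counts of Lims2 there were 13.3 and 6.15 counts of Gpr17 in the controls and 6.72 and 16.9 in the tamoxifen libraries, so that the groups overlapped on this measure. The library kit keeps the strand of the RNA, but whether the counting used it is not given in the sources used here, and without it reads of Gpr17 and reads from the introns or shared exons of Lims2 cannot be told apart. By the distance between profiles over the 4 libraries, Lims2 ranked 832 among the 20484 other genes tested in likeness to Gpr17.

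**Figure D2:**
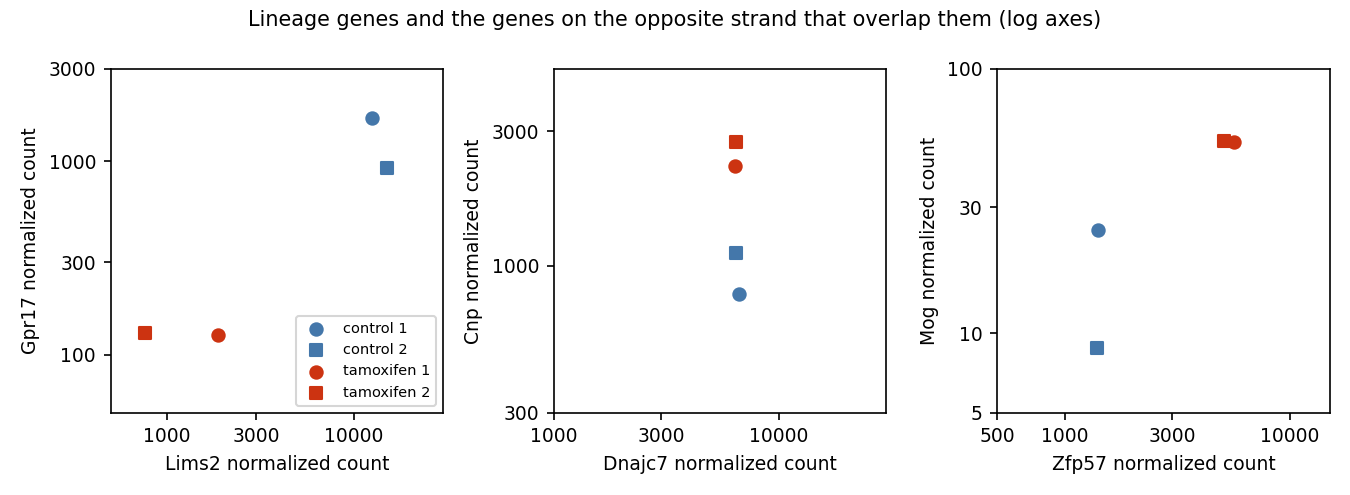
Normalized counts of Gpr17, Cnp and Mog against those of Lims2, Dnajc7 and Zfp57, the genes that overlap them on the opposite strand, with 1 point per library and log axes. Gpr17 and Mog differ between the groups in the direction of their partners, and Cnp differs while Dnajc7 stays between 6356 and 6650 in all 4 libraries.

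The myelin genes rose as well. Cnp and Mog had smaller log2 fold changes than the 5 precursor genes and Mbp was close to Olig1, and the differences between single genes were not tested. Mbp (chromosome 18 from 82493207 to 82603763), which encodes the protein that compacts the myelin sheath, was listed at 130.1 and 93.9 normalized counts in the controls and at 952 and 799 in the tamoxifen libraries. The groups were far apart, and the tamoxifen libraries were close to each other. The log2 fold change was 2.97 (SE 0.28, 95% interval 2.31 to 3.62, limma, BH-adjusted p = 0.000111), or 7.82-fold between the means. Cnp (chromosome 11 from 100465730 to 100482936), a phosphodiesterase that keeps cytoplasmic channels in myelin open, was listed at 796 and 1111 against 2267 and 2740.4. Its control level was the highest of the 3 myelin genes and its change was the smallest of the 9, with a log2 fold change of 1.41 (SE 0.21, 95% interval 0.92 to 1.89, limma, BH-adjusted p = 0.000810). Without the first or the second tamoxifen library the limma BH-adjusted p of Cnp was 0.0620 or 0.0858. Mog (chromosome 17 from 37321521 to 37334350), the glycoprotein of the outer sheath, was the lowest of the 3, at 24.7 and 8.76 in the controls and 53.1 and 53.2 in the tamoxifen libraries. These values rested on 18, 7, 49 and 74 reads, and the log2 fold change of 1.77 had a wide interval (SE 0.64, 95% interval 0.29 to 3.26, limma, BH-adjusted p = 0.0432). The call of Mog was the least stable of the 9, since it was lost with quantile normalization, where the log2 fold change was 0.86 (BH-adjusted p = 0.260), and without the second control library, where it was 1.08 (BH-adjusted p = 0.170). Without the first or the second tamoxifen library its BH-adjusted p in limma was 0.229 or 0.231.

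Cnp and Mog also share exonic bases with genes of the opposite strand. For Cnp the shared stretch of 670 bases, 16.5% of its exon bases, belongs to Dnajc7, a co-chaperone gene that was listed at 6650.05 and 6461 against 6356 and 6450 normalized counts and had a log2 fold change of -0.03 (limma, BH-adjusted p = 0.860). Cnp therefore rose relative to its neighbour, from 11.97 and 17.2 counts per 100 counts of Dnajc7 to 35.7 and 42.5. For Mog the shared stretch is 1474 bases, 64.6% of its exon bases, with Zfp57, a zinc finger gene of imprinting control. Zfp57 was listed at 1400 and 1391 normalized counts in the controls and at 5624 and 5101 in the tamoxifen libraries. Mog stood at 1.76 and 0.630 counts per 100 counts of Zfp57 in the controls and at 0.944 and 1.04 in the tamoxifen libraries, so that the groups overlapped on this measure and a rise of Mog apart from Zfp57 was not detectable. Cspg5, Olig1, Olig2 and Mbp overlap only genes that are not annotated as protein coding, and the one that shares exonic bases with Olig1 and was listed, Gm41492, reached at most 32.4 normalized counts. Olig2 lies inside Gm41492 without shared exonic bases. It shares 285 exonic bases, 6.89% of its exon bases, with Gm49614, which was at 0 and 2.50 in the controls and at 1.08 and 26.6 in the tamoxifen libraries.

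**Figure D3:**
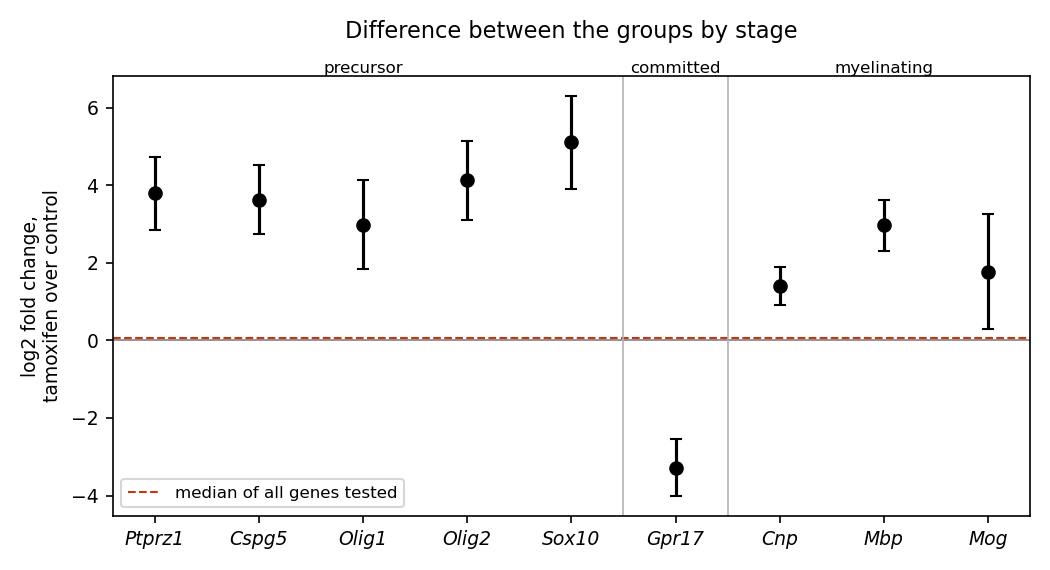
Log2 fold change, tamoxifen over control, of the 9 lineage genes by stage, with bars for the 95% interval of the limma fit and a dashed line at the median of all genes tested (0.05). The intervals of the 8 genes that rose lie above 0 and that of Gpr17 lies below 0.

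Compared per kilobase of the canonical transcript, the order of the 9 genes changed between the groups. In the control libraries Cnp was first with a mean of 405 ± 94.7 normalized counts per kilobase (SD, n = 2), followed by Gpr17 with 240.2 ± 96.9, Ptprz1 with 180.04 ± 25.3 and Cspg5 with 166 ± 50.8. The ranges of Gpr17 and Ptprz1 overlapped, as did those of Ptprz1 and Cspg5. Mbp (52.0 per kilobase) and Olig1 (36.1) came next with overlapping ranges, then Olig2 (9.92) and Mog (8.90) likewise, and Sox10 was last at 2.15. In the tamoxifen libraries Ptprz1 led with 2783 ± 1807 per kilobase, ahead of Cspg5 with 2188 ± 1226, whose range overlapped its own, and of Cnp with 1062 ± 142. Mbp (406), Olig1 (300.4) and Olig2 (188) followed, with overlapping ranges for Mbp and Olig1 and for Olig1 and Olig2, and then Sox10 (87.7), Mog (28.3) and, last, Gpr17 (23.6). With the union of all annotated exons as the length, Gpr17 was first in the controls, with a range that overlapped that of Cnp, and eighth of the 9 in the tamoxifen libraries, ahead of Mog, and Olig1 stood above Mbp in both groups.

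Ratios within a library were taken after adding 1 to each normalized count. They depend on how libraries were scaled against each other only through that added 1. The log2 ratio of Gpr17 to Olig2 was 5.88 and 5.23 in the controls and -1.42 and -2.28 in the tamoxifen libraries. The groups differed by -7.40 on the log2 scale, or by -7.43 and -7.17 with 0.5 and 5 added instead of 1. The overlap of Gpr17 with Lims2 enters this ratio too. The log2 ratio of Mbp to Olig2 was 2.21 and 1.94 against 1.49 and 0.34, a fall by 1.15, which was -0.58 without the second tamoxifen library. The mean log2 level of the 3 myelinating genes minus that of the 5 precursor genes was 0.55 and -0.28 in the controls and -1.21 and -2.27 in the tamoxifen libraries, a fall by 1.87. On each of these 3 measures the groups did not overlap, with the tamoxifen libraries lower. The exact permutation test, two-sided, gave p = 0.333 for each, which is the smallest value that 2 libraries against 2 allow, so none of these ratios could pass that test at 0.05 in this design.

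The 2 tamoxifen libraries differed from each other beyond counting error in all 5 precursor genes and in Cnp and Mbp. Of the precursor genes, 4 were more than 1.5 times higher in the second library. The second library had 2.697 times the normalized count of the first for Ptprz1 (exact binomial 95% limits 2.65 to 2.75, for counting error only), 2.31 times for Cspg5 (2.24 to 2.39), 2.40 times for Olig1 (2.14 to 2.71) and 1.87 times for Olig2 (1.64 to 2.14). For Sox10 the ratio was 1.42 (1.19 to 1.70). It was 1.21 (1.15 to 1.28) for Cnp, 0.840 (0.768 to 0.919) for Mbp, 1.00 (0.689 to 1.47) for Mog and 1.02 (0.806 to 1.30) for Gpr17. Thus 4 of the 9 genes, all of the precursor stage, were more than 1.5 times higher in the second library, beside 16.8% of all genes tested, and the median ratio over all genes tested was 0.945. Between the control libraries the ratio of Ptprz1 was 1.22 (1.13 to 1.32), that of Cspg5 1.55 (1.362 to 1.77) and that of Olig1 1.92 (1.30 to 2.89). It was 0.868 (0.438 to 1.71) for Olig2, 1.14 (0.246 to 5.76) for Sox10 and 0.556 (0.507 to 0.610) for Gpr17. For the myelin genes it was 1.40 (1.26 to 1.55) for Cnp, 0.721 (0.526 to 0.987) for Mbp and 0.355 (0.125 to 0.892) for Mog. Cspg5 and Olig1 were thus more than 1.5 times higher in the second control library as well.

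Markers of astrocytes, the star-shaped glia that surround vessels, moved with the precursor genes in the same libraries. The summed level of 10 astrocyte markers was 31402 and 37396 normalized counts in the controls and 169070 and 349761 in the tamoxifen libraries. All 10 were called higher, with a median log2 fold change of 3.298, with 5 of 10 called without the second tamoxifen library, and all 10 were more than 1.5 times higher in the second tamoxifen library than in the first, with a ratio of 2.07 between the sums. The summed level of the 5 precursor genes was 2133 and 2797 against 20347 and 52280, with a corresponding ratio of 2.57, and that of the 3 myelinating genes was 951 and 1214 against 3272 and 3593, with a ratio of 1.10. Pericyte markers had a ratio of 1.89 between the tamoxifen libraries, with sums of 32639 and 60415 against 44520 and 84253, and 2 of 6 called higher (Abcc9 and Notch3), a count of 1 or 4 without the first or second control library and of 0 with either tamoxifen library left out. Of 8 neural progenitor markers and of 8 neuron markers, 5 each were more than 1.5 times higher in the second tamoxifen library, with median ratios of 2.07 and 1.60. Of the 11 further precursor genes tested, 5 were above 1.5, with a ratio of 1.32 between the sums. Endothelial markers had a ratio of 0.508. Over all genes tested 28.6% were called higher, a share near that of the pericyte markers, with 2 of 6. The part of astrocytes, progenitors, neurons or pericytes in the levels of Ptprz1, Cspg5, Olig1 and Olig2 was not tested.

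**Figure D4:**
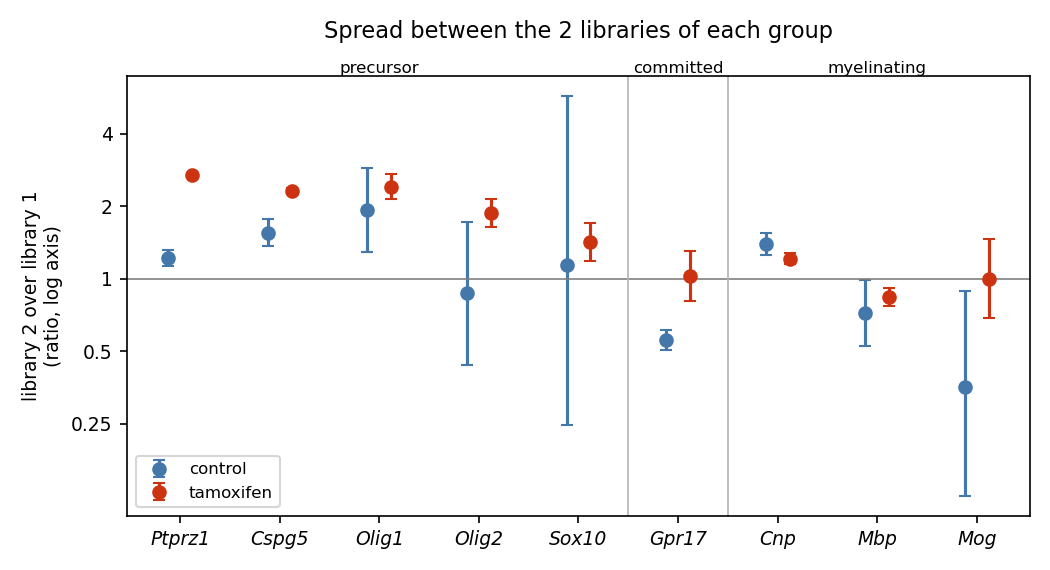
Ratio of the second to the first library (log axis) for the 9 lineage genes, in the tamoxifen and the control group, with bars for the exact binomial 95% limits. In the tamoxifen group Ptprz1, Cspg5, Olig1 and Olig2 lie between 1.87 and 2.697, and the myelin genes lie between 0.840 and 1.21.

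Further precursor genes were mostly called higher, as were the 5 already described. Between the tamoxifen libraries the sums of those 5 had a ratio of 2.57, and those of the further genes a ratio of 1.32. Of 12 such genes 11 were tested, since Neu4 was not analysed here. Of these, 10 were called higher and none lower, beside 28.6% called higher and 16% lower over all genes. The median log2 fold change was 3.65 beside 0.05 for all genes. With either tamoxifen library left out, 6 of them were called higher. Vcan, a large matrix proteoglycan, was listed at 660 and 443 normalized counts in the controls and at 5470 and 6518 in the tamoxifen libraries (log2 fold change 3.46, limma, BH-adjusted p = 2.31e-05). Cacng4, a subunit that modulates AMPA receptors and calcium channels, rose from 47.9 and 56.3 to 844 and 1206 (log2 fold change 4.25, limma, BH-adjusted p = 4.38e-05). C1ql1, a secreted protein of the C1q family, had no read in either control library and stood at 60.7 and 112 in the tamoxifen libraries, which is at least 21.98-fold higher than the mean control floor of 3 reads per library. C1ql1, Matn4, Pcdh15 and Nkx2-2, all called higher, passed the filter only through the tamoxifen libraries. The 1 gene not called was Cspg4, which encodes NG2 and is also a pericyte gene, at 1471 and 3493 against 3573 and 6790 (log2 fold change 1.12, limma, BH-adjusted p = 0.0517).

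The other genes of the committed stage were called at shares near those of all genes. Of 10 genes 9 were tested, with Zfp488 not analysed here, and 3 were called higher, 1 lower and 5 neither, beside 28.6% called higher and 16% called lower over all genes, with a median log2 fold change of -0.27. With either tamoxifen library left out, 1 was called higher. Bcas1, which marks oligodendrocytes at the onset of myelination, was listed at 8.22 and 10.01 normalized counts in the controls and at 116 and 134 in the tamoxifen libraries (log2 fold change 3.64, limma, BH-adjusted p = 0.000652). Tmem163, a zinc transporter, rose from 15.1 and 22.5 to 68.3 and 80.5, and Nfasc, an adhesion molecule of the node of Ranvier, rose by 1.72 on the log2 scale. The gene called lower was Itpr2, a calcium channel of the endoplasmic reticulum that many cell types use, at 10835 and 11363 against 4516 and 4679 (log2 fold change -1.27, limma, BH-adjusted p = 0.000301), and with equal totals or quantile normalization none of the 9 was called lower. Fyn, a kinase of the Src family, was at 5736 and 5690 against 3184 and 4093 and was not called, with a log2 fold change of -0.66. Enpp6, which is largely restricted to newly forming oligodendrocytes and was picked out after its values had been seen, as was Nfasc, was at 34.2 and 47.6 against 35.8 and 23.0, so that the groups overlapped.

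Most of the further myelin genes rose. Of 16 genes 12 were tested, with Opalin and Hapln2 not analysed here and 2 below the filter. Of the 12, 9 were called higher, 1 lower and 2 neither, beside 28.6% called higher and 16% lower over all genes. The median log2 fold change was 3.61, or 2.79 with genes at the floor in the control libraries set to their lower bound. Without the first tamoxifen library 4 genes were called higher, and without the second 3. Myrf, the transcription factor that switches on myelin genes, rose from 12.3 and 8.76 to 1018 and 860, a log2 fold change of 6.36 (limma, BH-adjusted p = 2.33e-05) that rested on 9 and 7 control reads. Ugt8a, which makes the galactolipids of myelin, had 0 and 2 reads in the controls and 59 and 61 in the tamoxifen libraries. Mobp, Ugt8a, Ermn and Gjb1, all called higher, passed the filter only through the tamoxifen libraries. Mal, a raft protein of myelin that is not confined to oligodendrocytes, fell from 14918 and 14768 to 2290 and 748 (log2 fold change -3.50, limma, BH-adjusted p = 0.000353).

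**Figure D5:**
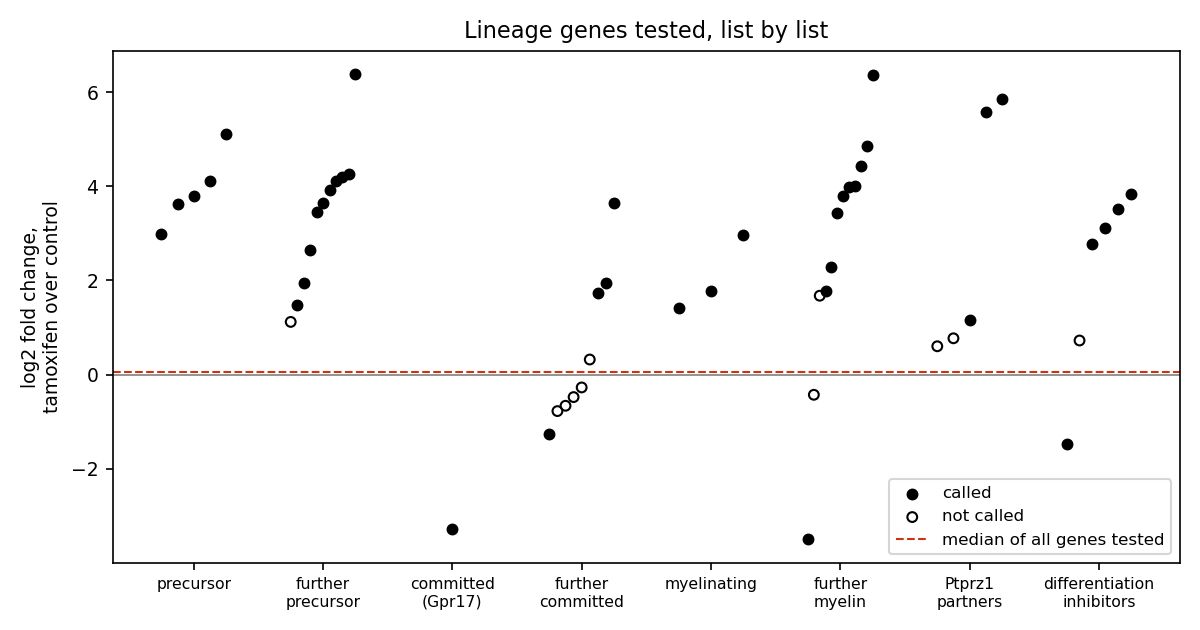
Log2 fold change, tamoxifen over control, of each tested lineage gene by list, with filled points for called genes, open points for genes not called and a dashed line at the median of all genes tested. Most precursor and myelin genes lie above 0, Gpr17 and Mal lie below -3, and the further committed genes lie on both sides of 0.

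Genes that act on the precursor stage from outside or from within were mixed. Over all genes tested, 28.6% were called higher and 16% lower. Of 5 ligands and partners of PTPRZ1, 3 were called higher (Mdk, Tnc and Cntn1) and none lower, with a median log2 fold change of 1.16. Midkine (Mdk), a heparin-binding ligand of the receptor, rose from 95.9 and 178 normalized counts to 6622 and 5994 (log2 fold change 5.58, limma, BH-adjusted p = 1.00e-05), and the matrix protein gene Tnc rose from 112 and 98.9 to 5918 and 6427 (log2 fold change 5.86, limma, BH-adjusted p = 3.23e-06). The related ligand pleiotrophin (Ptn) was abundant in all libraries, at 10565 and 10498 against 12782 and 25274, and was not called. Of 6 genes that hold back differentiation, 4 were called higher (Hes5, Lingo1, Id4 and Sox5) and 1 lower, with a median of 2.94, and the 4 fell to 2 without the first tamoxifen library and to 1 without the second. Hes5, a Notch target, rose from 9.59 and 26.3 to 158 and 365 (limma, BH-adjusted p = 0.00153), and Lingo1, a membrane inhibitor of myelination, from 23.3 and 25.03 to 172 and 475 (limma, BH-adjusted p = 0.00110). The gene called lower was Hes1, another Notch target, which ECs also express, at 3617 and 3784 against 1492 and 1185 (log2 fold change -1.48, limma, BH-adjusted p = 0.000242). Id2 was at 1245 and 1593 against 2065 and 2623 and was not called.

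Several lineage genes are also active in other cells, whose markers were read in the same libraries. For comparison, 28.6% of all genes tested were called higher and 16% lower. The microglia markers, with 2 of 6 called higher, stayed near that share. Neural progenitor markers were called higher for 7 of 8 genes and lower for Nes, with sums of 36843 and 34504 normalized counts in the control libraries, of which Nes made up most, against 24190 and 31529. Hes5 is in that list and in the list of inhibitors. Neuron markers were called higher for 6 of 8 genes and lower for none, with sums of 1097 and 1359 against 9896 and 14515. For Sox10 the neural crest is the other source. Of 8 Schwann cell markers 7 were tested (Pmp2 was not analysed here), with 3 called higher (Cdh19, Ngfr and Foxd3), 1 without the second tamoxifen library, none lower and sums of 744 and 743 against 1663 and 1659. Of 5 melanocyte markers Tyr and Tyrp1 were not analysed here, and Pmel, the 1 gene tested, was not called. Dct and Mlana had no control reads and were below the filter. In the tamoxifen libraries Dct was at 6.50 and 5.75 normalized counts and Mlana at 13.0 and 10.1. With no filter, 2 melanocyte markers were called higher. Microglia markers were called higher for 2 of 6 genes (Tmem119 and Aif1), 1 without the first control library and 0 with either tamoxifen library left out, with sums of 2303 and 3527 against 4554 and 4001. Pluripotency markers were called higher for all 8 genes, with sums of 69.9 and 114 against 53440 and 40988. Pituitary markers were called lower for 5 of 6 genes (3 without the second tamoxifen library) and higher for Lhb (not with either tamoxifen library left out), with sums of 13021 and 36927 against 164 and 171. Nanog, Sall4, Zfp42, Utf1, Ngfr, Foxd3 and Lhb had control means below 10 and passed the filter only through the tamoxifen libraries. Gh, Prl, Tshb and Pitx1 had tamoxifen means below 10 and passed it only through the controls. Markers are named in this paragraph for their calls or for the filter, after their values had been seen. The part of these cells in the lineage genes was not tested.

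The profiles most like those of 2 lineage genes were looked up by the distance between log2(normalized count + 1) values, centred on each gene's mean over the 4 libraries, as a description. The 5 genes nearest to Olig2 were Megf10, Gjb6, Ankfn1, Gria4 and Cadm2, at distances of 0.113 to 0.183. Of these, Megf10, a phagocytic receptor of astrocytes, was listed at 127 and 104 normalized counts against 1397 and 2847, and Gjb6, an astrocyte connexin, is also in the astrocyte list. The 5 genes nearest to Gpr17 were Gm7678, Gm26236, Mannr, Gm7539 and Gimap1os, at distances of 0.180 to 0.326. Gm7539 had the highest counts of these 5, at 505 and 230.3 in the controls and 28.2 and 30.9 in the tamoxifen libraries.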

How the data were processed

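RNA-Seq libraries (KAPA stranded kit) were made from 2 control and 2 tamoxifen pools of 3 mice. The authors aligned reads to GRCm39 with STAR 2.7.10a, quantified them during alignment, left out low-count genes, and used DESeq2 1.36.0 for normalization. The annotation release, strand setting and low-count limit are not given in the sources used here. The unit as deposited is a signal: each is a read count that the authors divided by 1 factor per library, and 100% of them came out as whole reads (tolerance 0.01). Table columns C were read as control and columns A as tamoxifen, because A is the initial of the lesion under study, although the labels do not use the letter.

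The members and lists were chosen with earlier results of these data known. limma 3.58.1 in R 4.3.3 (lmFit, eBayes with trend) was run on log2(normalized count + 1) for 20485 genes (mean 10 or more), with BH adjustment over all of them. Genes with a control mean below 10, among them Sox10, C1ql1, Bcas1 and Ugt8a, could enter the test only by being higher with tamoxifen. The reverse holds for genes with a tamoxifen mean below 10. Fold changes on this scale understate the change of low genes. p-values of limma measure the spread between 2 pools per group, drawn toward a trend over all genes tested. Without the trend the limma BH-adjusted p of Ptprz1 was 0.0107 against 0.000173. All 9 members were named. From each further list the 2 genes of highest mean and the 2 of largest change were named by rule, except for items that are not reported here. The test was checked on simulated data with the same spread beyond counting error for all genes. Far fewer genes were changed there than were called here, so the check covers a simpler setting. Alternatives were pseudocounts of 0.5 and 5, no filter or a mean of 100, equal totals, quantile normalization, no trend, a replicate block, count tests on the recovered reads (edgeR 4.0.16, DESeq2 1.42.0), leaving out single libraries, and the adjusted p alone. Locations, overlaps and lengths came from GENCODE M39, and sequences from the GRCm39 genome. Depth was 35387438 to 49799321 reads on genes. Poisson and binomial limits cover counting error only, and intervals of log2 fold changes come from the limma fit.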

Additional observations from a re-analysis of the deposited data

How the results depend on the processing

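No value of the 9 genes changed direction under any alternative run. Ptprz1, Cspg5, Olig2, Sox10 and Mbp were called under all 15 alternatives. Mog lost its call under 7, with log2 fold changes of 0.86 to 1.78 and BH-adjusted p of 0.0556 to 0.260 there, and was not tested with a filter at a mean of 100. Olig1 and Cnp lost theirs with either tamoxifen library left out (limma, BH-adjusted p = 0.0560 and 0.106 for Olig1, 0.0620 and 0.0858 for Cnp), and Gpr17 without the second (limma, BH-adjusted p = 0.0535). Leaving out each library in turn, where the lone library is assumed to vary like the others, gave 4147 to 9700 called genes against 9151, 5 to 8 of the 9 genes called higher, and 0 to 1 called lower. The lowest counts of all genes were 4147 without the second tamoxifen library and 5024 without the first. A filter at a mean of 100 left 5934 called genes, because fewer genes were tested.

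Scaling moved the balance of calls. With equal totals 7206 genes were called higher and 1838 lower, and with quantile normalization 4615 and 5509, against 5867 and 3284. The median log2 fold change of all genes was then 0.52 and -0.23, against 0.05. Under these scalings Sox10 was at 5.54 and 3.84, Cnp at 1.88 and 1.35, and Gpr17 at -2.81 and -3.90, each still called. Libraries with the same replicate number showed no shared shift over the genes tested (correlation of deviations 0.0251). That value does not settle whether the samples were paired. A fit with the replicate block called 9525 genes and changed no call of the 9. edgeR called 9241 genes and DESeq2 8739. Sox10 and Mog in the control libraries are limited by 4 to 18 reads.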
